A study of Rattus norvegicus with 7 samples.

Results

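The step from 48 hrs to 72 hrs after embolic middle cerebral artery occlusion (eMCAo) was described from 2 of the 7 arrays of the series, the array titled eMCAo 48hrs and the array titled eMCAo 72hrs. All 13337 genes named by at least 1 probe were members, and each was represented by its brightest probe. Of the 22523 probes, 13793 had a gene symbol. The study placed a clot in the artery that feeds much of the forebrain of male Wistar rats of 280 to 320 g, and collected brain from unoperated rats and at 12, 24, 48 and 72 hrs, 5 day and 7 day. Total RNA, 400 ng for an array, was measured on Illumina rat bead arrays, on which each bead type carries 1 probe and its brightness reports 1 transcript. The labels gave the tissue of every sample as ischemic brain, named no brain region and listed no drug treatment. Each group had 1 array, and whether an array held 1 rat or a pool was not stated. A difference between the arrays therefore had no replicate check, and time, animal, dissection and array cannot be told apart.

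After a stroke, cells that die in the core release signals to which resident microglia, and then neutrophils and monocytes from the blood, respond with cytokines and chemokines. Over the following days macrophages and microglia engulf dead cells and myelin, digest them in lysosomes and pass on the lipid, while astrocytes and fibroblasts enclose the lesion in a scar of collagen and other matrix proteins. Many of the cells that fill the lesion divide locally.

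A gene was counted as higher or lower when the 2 arrays differed by at least 2-fold after normalization and it was detected on either one, above a noise limit read from the values below 0. By this rule of size 127 of 9434 detected genes (1.35%) were higher at 72 hrs than at 48 hrs, and 66 (0.700%) were lower. The fold of a gene not detected on the dimmer array was taken as a bound, against the lowest detected level of that array or the gene's own value where higher. There were 7 such genes among the higher and 15 among the lower, and with bounds 125 and 60 genes were at least 2-fold away, while counts of gene lists keep the 127 and 66. Genes on the lists of macrophages and microglia, of the lysosome, of collagens and of mitosis were 29 of the 127 higher genes (22.8%). Genes on the lists of photoreceptors and pineal gland, chemokines, neuropeptides and the Reg family were 31 of the 66 lower genes (47.0%). Detected members of the lists behind the 29 numbered 24, 10, 12, 18, 10 and 37 among all 9434 detected genes. Those behind the 31 numbered 26, 20, 25 and 9. Some of the lists behind the 29 share members, so their sizes cannot be added. The share of all detected genes on either group of lists was not counted. The photoreceptor and pineal list, with 16 of the 66, and the Reg family list, with 5, were put together after the values were seen. So was the list of perivascular and meningeal macrophages, and both shares therefore describe in part the choice of lists. Most of the transcriptome was alike on both arrays. The median log2 difference was -0.01, its SD over genes was 0.37, and 8606 genes (91.2%) lay within 1.5-fold. Of all 9434 detected genes 4569 had a difference above 0 and 4852 below 0, the background for such counts in the lists. At least 4-fold differences were found for 6 higher and 10 lower genes.

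**Figure D1:**
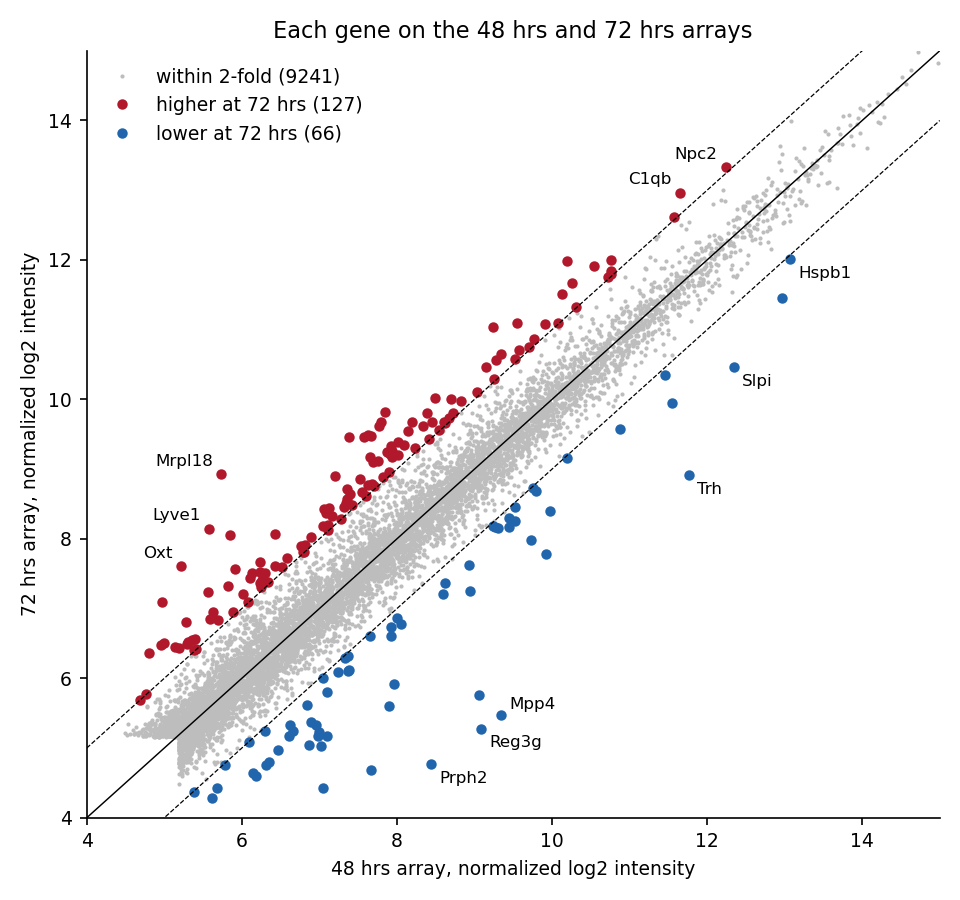
Each point is a gene detected on either array, with its normalized log2 intensity at 48 hrs on the x axis and at 72 hrs on the y axis. The solid line marks equal levels and the dashed lines 2-fold, outside which lie 127 higher and 66 lower genes, and the genes furthest below the line, Mpp4, Reg3g and Prph2, were at the lower end of the scale at 72 hrs.

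The 72 hrs array was the brighter one, with a summed intensity over all genes of 6383140 against 5341440 at 48 hrs and at most 5995670 on the other 5 arrays. Intensities of genes given in the text are deposited values before normalization, while folds and log2 differences are after it. The ratio of a gene's intensities can therefore differ from its fold. The median intensity was 14.7 at 48 hrs and 16.5 at 72 hrs, against 13.1 to 16.5 over all 7 arrays, and 8983 and 9066 genes were above detection limits of 9.00 and 9.61 intensity units. Brain markers were bright on both arrays, with intensities at 48 and 72 hrs of 5107 and 4483 for the synaptic gene Snap25, 19255 and 20330 for the astrocyte gene Gfap, and 3065 and 4024 for the myelin gene Mbp. Hemoglobin signal was alike, with Hbb at 708 and 695. The endothelial gene Cdh5 was below 0 on both, and the cerebellar genes Pcp2 and Gabra6 were below the detection limit on both. In bulk tissue, fewer cells of a type and less RNA in each cell cannot be told apart.

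The neighboring steps were of similar size. Of genes detected on either array, 117 (1.25%) were higher and 113 (1.21%) lower at 24 hrs than at 12 hrs, and 154 (1.64%) were higher and 67 (0.712%) lower at 48 hrs than at 24 hrs. From 72 hrs to 5 day 79 genes (0.839%) were higher and 52 (0.552%) lower. From 5 day to 7 day the split turned, with 61 genes (0.655%) higher and 174 (1.87%) lower. At 72 hrs 65.8% of the genes past 2-fold were higher. This share was 75.3% with median scaling, and it was 82.6% without normalization between arrays, which raised the median difference of all genes to 0.15, so differences are read relative to the median gene.

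Most macrophage and phagocyte genes had positive differences. Of 24 detected macrophage and phagocyte genes 23 had a difference above 0, 6 were at least 2-fold higher and 0 lower, and the median was 0.60 on the log2 scale against -0.01 for all genes. Trem2, a receptor on phagocytes for lipid and cell debris, had an intensity of 1130 at 48 hrs and 4734 at 72 hrs. It was 3.47-fold higher after normalization and stood at 9620 at 5 day. Its level was therefore between those of 48 hrs and 5 day, and it was 6.75-fold above the normal array at 72 hrs. Laptm5, a lysosomal membrane protein of leukocytes, went from 536 to 1593, 2.47-fold, and Ncf1, a cytosolic subunit of the phagocyte NADPH oxidase, from 912 to 2467. Clec7a, the receptor for fungal beta-glucan that is also a marker of activated microglia, went from 197 to 508. Adgre1, which encodes the macrophage antigen F4/80, went from 50.6 to 161, a log2 difference of 1.15.

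A list of genes that mark microglia of healthy brain held 10 detected members, with a median of 0.85, 4 at least 2-fold higher and 0 lower. Of these 4, Trem2 also stood on the phagocyte list and C1qa on the complement list, and the remaining 2 were receptors for ADP. P2ry12, the one found on resting microglial processes, had intensities of 132, 26.4, 45.2, 179, 595, 1031 and 608 on the 7 arrays in order from normal to 7 day. It was lowest at 12 hrs, near its normal level at 48 hrs and 3.15-fold above normal at 72 hrs. The related receptor P2ry13 went from 41.4 to 126. The list was not uniform, since Cx3cr1, the fractalkine receptor, differed by 0.24 and Siglec5 by -0.19. Tmem119 was dim, at 17.2 and 21.1. Aif1, the calcium-binding protein Iba1, had a difference of 0.73 with intensities of 4204 and 8537.

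Genes of the macrophages that line vessels and meninges form a list put together after the values were seen, so its count and median describe the choice. Of its 12 detected members 11 had a difference above 0 and 6 were at least 2-fold higher, with a median of 1.08. Lyve1, a hyaluronan receptor of lymphatic vessels and of perivascular macrophages, had an intensity of 20.9 at 48 hrs and 294 at 72 hrs, and between 27.6 and 146 on the other 5 arrays. It was 5.92-fold higher at 72 hrs than at 48 hrs, and its 72 hrs level was the highest of the 7. Ms4a4a, a membrane protein of alternatively activated macrophages, went from 139 to 770, 4.20-fold, with 530 at 5 day. Folr2, a folate receptor of tissue macrophages, went from 306 to 1000.0, and the mannose receptor Mrc1 from 136 to 403. Pf4, platelet factor 4, went from 332 to 1156, and it is carried by platelets as well as by such macrophages. Vsig4, a complement receptor of resident macrophages, was detected at 72 hrs (68.5) and at 5 day (17.6) and not on the other 5 arrays, and it was at least 2.42-fold higher at 72 hrs than at 48 hrs. Cd163, the hemoglobin scavenger receptor of the same cells, differed by 0.07, and F13a1 by -0.23. The members were thus not higher to a like degree.

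Complement C1q, the opsonin that tags synapses and dying cells, was higher in all 3 chains. C1qb had an intensity of 727 on the normal array and 3112 at 48 hrs, and reached 9577 at 72 hrs and 13015 at 5 day. The folds from 48 to 72 hrs were 2.59 for C1qa, 2.49 for C1qb and 2.37 for C1qc. Cfd, the alternative pathway protease factor D, went from 175 to 626. Among the other members of the complement list, C2 differed by 0.92, C4b by 0.70 and the C1 inhibitor gene Serping1 by 0.67, whereas Cd55, which protects host cells from complement, differed by -0.83. In all, 4 of 16 detected complement genes were at least 2-fold higher and 0 lower, with a median of 0.32.

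Of 18 detected lysosomal genes 4 were at least 2-fold higher and 0 lower, all 18 had a difference above 0, and the median was 0.64. Npc2, which carries cholesterol out of the lysosome, was the brightest of all genes past 2-fold and went from 4855 to 12814, 2.13-fold after normalization. Ctsd, the aspartic protease cathepsin D, went from 829 to 2108, Ctsh from 311 to 763, and Gusb, beta-glucuronidase, from 211 to 650. The smallest differences were in Lipa, lysosomal acid lipase, at 0.04 and Cst3, an inhibitor of cathepsins, at 0.21. Grn, the lysosomal growth factor progranulin, which was not on the list, went from 1030 to 2472.

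Genes of lipid handling and of cholesterol synthesis had medians of opposite sign. Of 15 detected lipid handling genes 4 were at least 2-fold higher and 0 lower, with a median of 0.36. Apoc1, an apolipoprotein, went from 200 to 1016, 3.95-fold, and continued to 2407 at 5 day. Abca1, the pump that loads cholesterol onto apolipoproteins, went from 119 to 510, 3.23-fold. Pltp, which transfers phospholipid between lipoproteins, went from 1421 to 4468, and its second probe differed by 0.58 against 1.38 for the brightest. Apoe differed by 0.91, and Lpl, lipoprotein lipase, by 0.37. Of 14 detected cholesterol synthesis genes 13 had a difference below 0, although 0 passed 2-fold and the median was -0.42. The furthest were Tm7sf2 at -0.75 and Msmo1 at -0.60, which encode steps after squalene, and Sqle, squalene epoxidase, differed by -0.44.

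All 8 detected genes of class II antigen presentation had differences from 0.57 to 1.08, with 3 at least 2-fold higher and a median of 0.81. RT1-Da, a rat class II alpha chain, had intensities of 95.5 on the normal array, 1644 at 48 hrs and 4216 at 72 hrs, and then 3253 at 5 day. Ifi30, a lysosomal thiol reductase that opens antigens for loading, went from 495 to 1235. The class I and immunoproteasome list had 0 genes past 2-fold and a median of 0.15. The median of interferon-induced genes was 0.17, with 1 of 27 detected members at least 2-fold higher.

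Both CD8 genes were higher, and genes of the CD3 complex, which carries the T cell receptor signal, were near the detection limit. Cd8a had an intensity of 215 at 48 hrs and 675 at 72 hrs and was not detected on the normal and 12 hrs arrays. Cd8b went from 38.6 to 137, and Cd4, which in rats is also carried by macrophages, was detected at 72 hrs (31.1), 5 day and 7 day and not at 48 hrs, with a bound under 2-fold. Cd3e was detected at 48 hrs and not at 72 hrs and differed by -0.08, and Cd3d and Cd3g were not detected on either array. Of 8 detected lymphocyte genes 3 were counted as past 2-fold, Cd8a, Cd8b and Cd4, or 2 with Cd4 at its bound.

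**Figure D2:**
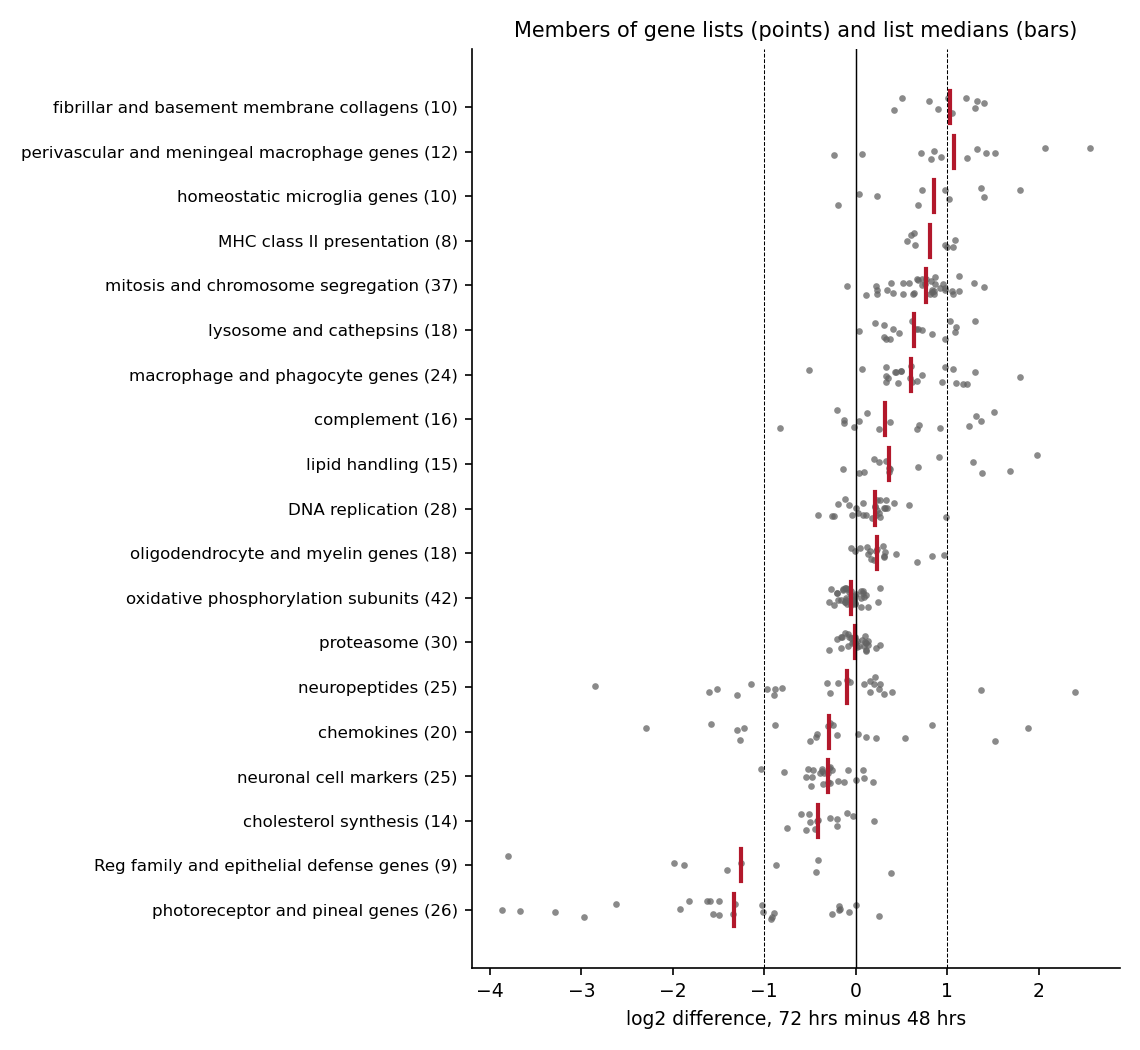
Each point is a detected member of the gene list named on the left, with the number of members detected in brackets, and its x position is the log2 difference between 72 hrs and 48 hrs. Bars are list medians, from 1.08 for perivascular and meningeal macrophage genes to -1.33 for photoreceptor and pineal genes, with proteasome and oxidative phosphorylation genes close to 0.

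Collagen genes had differences above 0 in all detected members. Of 10 detected fibrillar and basement membrane collagens 6 were at least 2-fold higher, 0 were lower, and the median was 1.04. Col1a2, a chain of type I collagen, had intensities, in the same order of arrays, of 1369, 744, 827, 1172, 3759, 5824 and 2985. Its level at 48 hrs was thus close to normal and its level at 72 hrs was 2.17-fold above normal. Its partner chain Col1a1 was dimmer, at 11.6 and 71.0, with 230 at 5 day. Col5a2 of the fibrillar type V went from 157 to 497, and Col15a1 of the basement membrane zone from 48.9 to 177. Col4a1, the main basement membrane chain of vessels, differed by 0.42 and Col18a1 by 0.90.

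Other matrix genes were mixed, with 6 of 30 detected members at least 2-fold higher, 0 lower and a median of 0.31. Lum, lumican, a proteoglycan that spaces collagen fibrils, went from 175 to 779, 3.50-fold, and Dcn, decorin, from 582 to 1726, 2.45-fold. Fbn1, fibrillin of elastic microfibrils, went from 20.0 to 140, 3.19-fold. Postn, periostin, which binds collagen and integrins, had an intensity of 270 at 48 hrs, 696 at 72 hrs and 307 at 5 day. It was at least 2-fold above every other array at 72 hrs. The lysyl oxidases Loxl1 and Loxl2, which cross-link collagen, were 2.02-fold and 2.38-fold higher, and Loxl2 was dim at 48 hrs (9.12).

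Among metalloproteinases a small set was higher at low levels. Mmp12, macrophage elastase, went from 31.1 to 273, 4.61-fold, and to 586 at 5 day. Mmp7, matrilysin, was detected only at 72 hrs (126) and 5 day (225) and was at least 3.76-fold higher. Mmp8, a neutrophil and macrophage collagenase, was at 3.84 and 70.3, at least 2.46-fold higher, and Mmp3, stromelysin, went from 14.2 to 64.9. The remaining 12 of 16 detected members were within 2-fold. Mmp9, the neutrophil gelatinase, differed by -0.63 and Timp1, a general inhibitor, by -0.56. The list median was 0.08, and it turned below 0 under other processing. Plau, the urokinase protease that activates plasminogen, went from 30.3 to 150, 2.83-fold.

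Genes of mitosis had differences mostly above 0 and mostly under 2-fold. Of 37 detected members 36 had a difference above 0, 6 were at least 2-fold higher, 0 were lower, and the median was 0.77. The member below 0 was Stmn1, a microtubule destabilizer that neurons also express, at -0.10. Aurkb, a kinase of chromosome segregation, went from 214 to 708, 2.65-fold. Ccnb2, a cyclin that drives entry into mitosis, had intensities from normal to 7 day of 59.3, 38.6, 98.6, 609, 1834, 1324 and 348. It was highest at 72 hrs, 16.9-fold above normal. The level at 48 hrs was already higher than on any array before it. Cdc20, which activates the anaphase-promoting complex, went from 159 to 433 and Kif20a, a kinesin of cytokinesis, from 91.4 to 268, and Prc1, which bundles the central spindle, from 374 to 945. Dlgap5, a spindle protein, went from 181 to 464. Knstrn, a spindle protein outside the list, went from 254 to 825.

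For genes of DNA replication the median of 28 detected members was 0.21 with 0 past 2-fold in either direction, and 21 had a difference above 0. Rrm2, the ribonucleotide reductase subunit that limits nucleotide supply, was the highest at 0.98, and Rfc2, a clamp loader subunit, the lowest at -0.41. Both lists were above normal on the earlier array, with a median difference between 48 hrs and normal of 0.74 for replication and 1.52 for mitosis. Between 72 hrs and normal the medians were 0.93 and 2.28.

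The promoters of the mitosis genes are shown because many of them share the CCAAT box, bound by the factor NF-Y, and the cell cycle element TTTGAA, bound by the DREAM complex in mammals. RefSeq promoters (rat build GRCr8) matched 10976 genes on the array, and the 250 bases before the start were searched on both strands. The start used was the outer end of the RefSeq gene for 49.3% of these genes and another listed start for the rest. CCAAT was found in 24 of 32 mitosis genes (75%) against 34.9% of all matched promoters, and in 15 of 25 replication genes (60.0%). TTTGAA was found in 14 of the mitosis genes (43.8%) against 14% of all, and in 3 of the replication genes (12.0%). The 102 matched promoters of all genes higher at 72 hrs were near the background, with CCAAT in 36.3% and TTTGAA in 17.6%. Shown are the stretches before Kif20a (chr18:26504172-26504421, plus strand), with 3 CCAAT boxes, and Cdc20 (chr5:137255800-137256049, minus strand), with 2 CCAAT boxes on either side of 1 TTTGAA, each motif in capitals on either strand. A match describes the letters only.
Kif20a: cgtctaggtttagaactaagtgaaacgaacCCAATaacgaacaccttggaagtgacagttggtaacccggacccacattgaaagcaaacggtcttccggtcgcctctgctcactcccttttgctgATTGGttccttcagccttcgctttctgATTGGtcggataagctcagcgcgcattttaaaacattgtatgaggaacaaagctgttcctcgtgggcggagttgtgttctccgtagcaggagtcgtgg
Cdc20: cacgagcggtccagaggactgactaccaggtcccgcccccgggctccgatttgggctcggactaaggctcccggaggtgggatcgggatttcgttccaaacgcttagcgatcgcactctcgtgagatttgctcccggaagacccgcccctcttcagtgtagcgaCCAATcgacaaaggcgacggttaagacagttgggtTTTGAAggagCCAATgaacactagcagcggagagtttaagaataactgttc

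**Figure D3:**
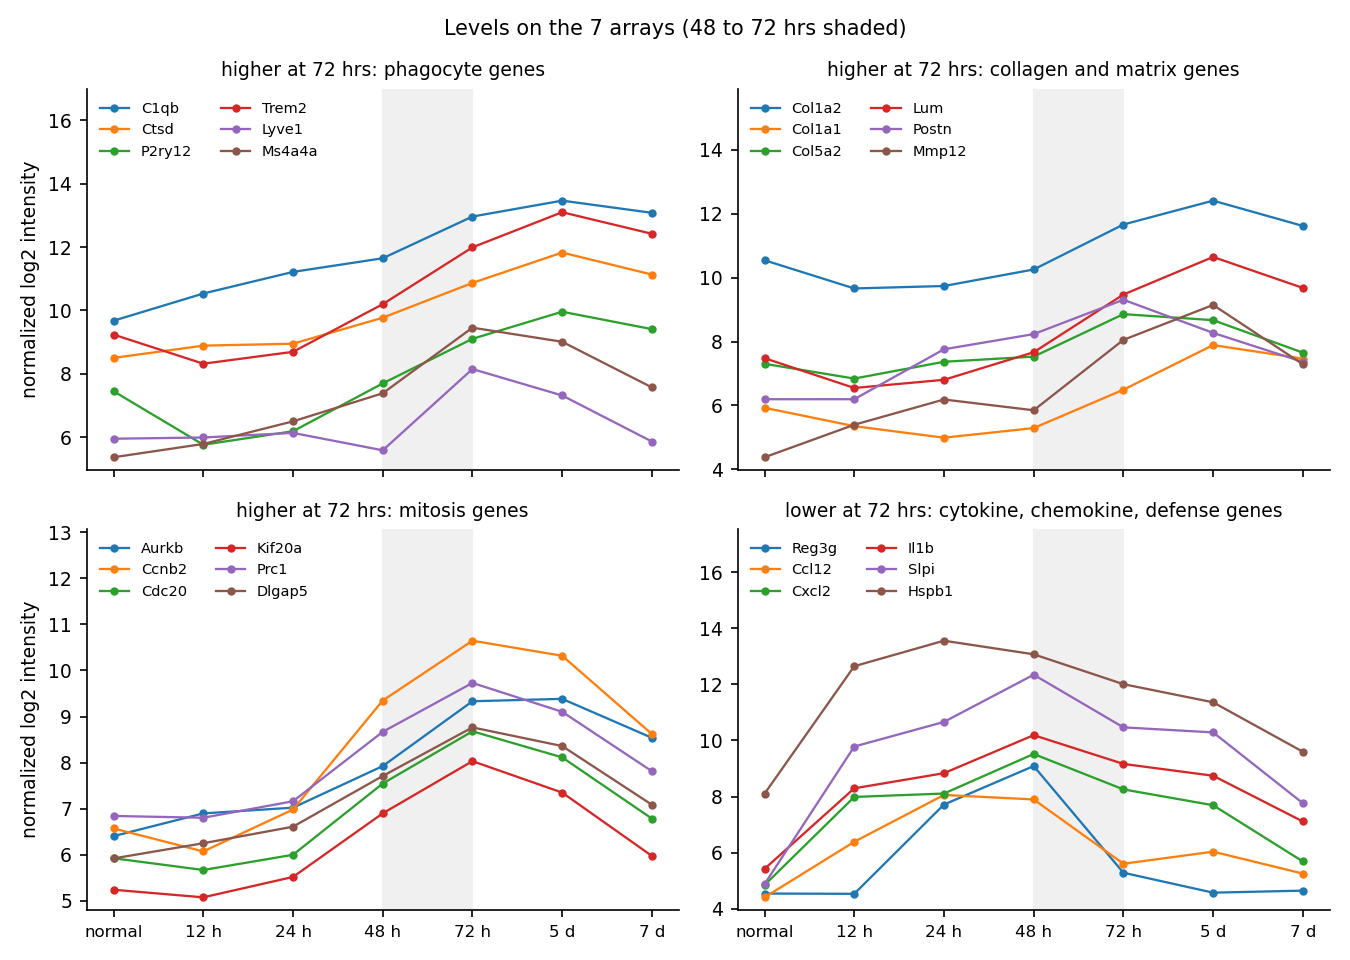
Normalized log2 intensity (y axis) of genes past 2-fold on each of the 7 arrays (x axis, normal to 7 day), with the step from 48 to 72 hrs shaded and 1 array at each point. The phagocyte and collagen genes stood higher at 72 hrs than at 48 hrs and most reached their highest level at 5 day, most of the mitosis genes were highest at 72 hrs, and the cytokine, chemokine and defense genes were below their 48 hrs level at 72 hrs.

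The largest single difference upwards was in Mrpl18, a protein of the large mitochondrial ribosomal subunit. From normal to 7 day its intensities were 991, 398, 206, 26.7, 522, 604 and 528. The 48 hrs array stood apart, 2-fold or more below all 6 others, and the 72 hrs level was 9.12-fold above it. Of the other 38 detected mitochondrial ribosomal genes 0 passed 2-fold, and the median of the list was -0.06.

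Further genes with large differences upwards had varied roles. Sult1a1, a phenol sulfotransferase, had an intensity of 193 at 48 hrs, 907 at 72 hrs and 261 at 5 day, and was at least 2-fold above every other array at 72 hrs. Il1rl1, the receptor of interleukin-33, was detected at 72 hrs only (62.2) and was at least 2.26-fold higher. Acot1, an acyl-CoA thioesterase of fatty acid metabolism, went from 170 to 786, and Apobec1, which edits cytidine in RNA, from 190 to 865. Fcrl2, of the Fc receptor-like family, went from 570 to 2346 and stood at 5012 at 5 day. Ucp2, a carrier of the inner mitochondrial membrane common in macrophages, went from 711 to 2487. These genes differed in what followed, since Fcrl2 was higher still at 5 day while Sult1a1 was near its 48 hrs level. Fkbp5, a chaperone of the glucocorticoid receptor and a standard target of it, went from 797 to 1977, against 838 at 5 day. Along with Sult1a1 it was 1 of 2 genes past 2-fold among 13 detected glucocorticoid-responsive genes, whose median was 0.39. Tsc22d3 differed by 0.61 and Sgk1 by 0.68, while Dusp1 differed by -0.27.

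Chemokines went in both directions. Of 20 detected members 5 were at least 2-fold lower and 2 higher, with a median of -0.30. Ccl12, a ligand of the monocyte receptor Ccr2, went from 209 to 24.2, after 238 on the 24 hrs array and before 43.1 at 5 day, and was 4.91-fold lower at 72 hrs than at 48 hrs. The related Ccl7 went from 957 to 351 and Ccl2 from 1781 to 839. All 3 had been at their highest at 24 hrs and remained above normal at 72 hrs. Cxcl2, a neutrophil attractant, was highest at 48 hrs (690) and was at 318 at 72 hrs. In the other direction, Cxcl13, the B cell attractant, went from 162 to 771 and reached 2570 at 5 day, 3.69-fold higher at 72 hrs. The second gene that was higher was Pf4.

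Of 15 detected cytokines and ligands 1 was at least 2-fold lower at 72 hrs and 0 were higher. Il1b, the cytokine interleukin-1 beta, had intensities from normal to 7 day of 14.1, 271, 432, 1125, 622, 434 and 103. It was 2.04-fold lower at 72 hrs than at 48 hrs and still 13.4-fold above normal, and its difference lay between -1.04 and -0.83 under other processing, so it was close to the 2-fold limit. The remaining 14 detected cytokines and ligands were within 2-fold, with Il1rn, the interleukin-1 receptor antagonist, at -0.87 and Tnfsf13b, the B cell survival factor BAFF, at 0.92. Among genes of other lists or of none, Ptgs2, the inducible cyclooxygenase, went from 839 to 438, following 3784 at 12 hrs. Gch1, which makes the cofactor of nitric oxide synthase, went from 458 to 192. Hspb1, the small heat shock protein of reactive astrocytes and stressed cells, went from 8413 to 4824, following 11595 at 24 hrs. Of the other 12 detected heat shock genes 0 passed 2-fold. The list median was -0.30, but -0.13 with median scaling and -0.05 without normalization between arrays. Cflar, an inhibitor of caspase-8, went from 915 to 220, 4.39-fold lower.

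Reg family and epithelial defense genes, a list put together after the values were seen, had 5 of 9 detected members at least 2-fold lower, or 4 with bounds, and 0 higher. Their median was -1.25, and it was -0.52 with members undetected at 72 hrs at their bound. Over all 12 measured members it was -0.66. Reg3g, a secreted lectin that kills Gram-positive bacteria in the gut and appears in injured nerve, was at 512 on the 48 hrs array and 13 on the 72 hrs array, with 181 at 24 hrs, and was below 0 on the other 4. It was 14-fold lower at 72 hrs than at 48 hrs. Slpi, an inhibitor of neutrophil elastase, went from 5164 to 1601, 3.68-fold lower. At 72 hrs it was still 48.3-fold above normal, but it was not detected on the normal array (1.79), so the size of this fold is uncertain. Reg3a went from 74.5 to 12.2, and Spink4, a protease inhibitor of gut goblet cells, was detected at 48 hrs only (103) and was at least 3.64-fold lower at 72 hrs. Lcn2, lipocalin-2 of neutrophils and astrocytes, differed by 0.38 and was the 1 detected member above 0, with 8 below. S100a9, which was not among these 9 members, differed by 0.06. The list thus held members that were far lower and members that were within 2-fold. The median of neutrophil genes was -0.19, with 1 of 10 detected members past 2-fold, and that median was above 0 when undetected genes were kept.

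Neuropeptide genes also went in both directions, 5 of 25 detected being at least 2-fold lower and 2 higher, and their median of -0.09 changed sign under other processing. Trh, thyrotropin-releasing hormone, had intensities from normal to 7 day of 165, 858, 2570.5, 3409, 519, 399 and 279. It was highest at 48 hrs and 7.19-fold lower at 72 hrs. Npy, neuropeptide Y of interneurons, went from 2954 to 1106 and Cck, cholecystokinin, from 7773 to 3234. Vip, a peptide of interneurons, went from 595 to 296. These 4 were also lower at 5 day than at 24 hrs. Pmch, the melanin-concentrating hormone gene of the lateral hypothalamus, went from 110 to 32.6 and was at 5310 at 5 day. Oxt, oxytocin of the hypothalamus, was at 9.72 at 48 hrs and 190 at 72 hrs, 5.28-fold higher, against 60.1 on the normal array and 311 to 1114 on the other 4. Nts, neurotensin, went from 106 to 361. Peptides of the hypothalamus thus differed widely from array to array, and the part of dissection in these values was not tested.

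Of 25 detected neuronal markers 21 had a difference below 0, against 4852 of all 9434 detected genes. Only 1 was at least 2-fold lower, and the median was -0.31. That gene was Tubb3, a neuronal tubulin, at 823 and 451. Of 42 detected calcium signaling genes 33 had a difference below 0 and 0 passed 2-fold. Their median was -0.27, and it ran from -0.28 to -0.06 under other processing. Rgs4, a brake on G protein signaling in cortex and striatum, went from 2729 to 1481, and Crhbp, which binds corticotropin-releasing hormone, from 362 to 155. Striatal projection neuron genes had a median of 0.01. The myelin list had a median of 0.23, with 16 of 18 detected members above 0 and 0 past 2-fold. Genes of oxidative phosphorylation and of the proteasome had medians of -0.05 and -0.01 and 0 members past 2-fold, and these 2 medians were above 0 without normalization.

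The furthest differences downwards were in genes of photoreceptors and the pineal gland, and they were set by the 48 hrs array. Retinal photoreceptors turn light into a signal through opsin, transducin and cyclic GMP, and pinealocytes, which make melatonin, share many of these genes. The list was put together after the values were seen. Of its 26 detected members 16 (61.5%) were at least 2-fold lower at 72 hrs and 0 were higher, with a median of -1.33, or -0.95 with undetected genes at their bound. At 48 hrs 25 were detected and at 72 hrs 13, so many entered the count only through the array where they were high. Over all 41 measured members the median was -0.47. Of the 16, 11 were undetected at 72 hrs, and 4 of these, Rbp3, Isl2, Gnb3 and Neurod4, had bounds under 2-fold, which leaves 12. Mpp4, a scaffold of the photoreceptor synapse, had an intensity of 609 at 48 hrs, 19.5 at 72 hrs and 13.1 to 24.9 on the other 5 arrays. It was 14.6-fold lower at 72 hrs, the furthest of all genes. Prph2, peripherin of the photoreceptor disc rim, was at 319 at 48 hrs and between -1.67 and 1.16 on all other arrays, at least 9.71-fold lower at 72 hrs. Gnat2, the cone transducin, was at 502 at 48 hrs, 31.0 at 72 hrs and 15.2 to 27.7 elsewhere. Sag, the arrestin that ends the light response, was at 175 at 48 hrs and undetected on the 6 others. Aipl1, a chaperone of the photoreceptor phosphodiesterase, was at 105 at 48 hrs and undetected at 72 hrs. Asmt, the last enzyme of melatonin synthesis, was at 95.3 and 14.4, and Guca1a, an activator of retinal guanylate cyclase, at 110 and 10.1. These genes were high on 1 array of 7.

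Over the whole list, 25 of 41 measured genes were detected at 48 hrs against 10 to 13 on each other array. Their summed intensity was 3984 at 48 hrs and 1062 at 72 hrs, and 634 to 912 on the 5 others. At 48 hrs 23 of the 41 had their highest level of the 7 arrays. Defining members were at or near 0 on both arrays, among them the rod transducin Gnat1 (0.996 and -6.45), the regulators Crx (7.08 and -6.60) and Nrl (-2.76 and -1.84), the cone opsin Opn1mw (2.25 and -1.99) and recoverin, Rcvrn (3.74 and 6.03). Aanat, the enzyme that sets the daily rhythm of melatonin, was at 17.2 and 13.4. Of the 22 genes that were at least 2-fold above all 6 other arrays at 48 hrs, 11 were on this list. The remainder held Alox15, a lipoxygenase, Nphs1, nephrin of the kidney filter, Miox, an inositol oxidase, and Fabp12, a fatty acid-binding protein, beside Il1b, Cxcl2, Gch1, Reg3g, Slpi, Spink4 and Ly6c. Without the list 50 genes were lower at 72 hrs in place of 66, and the 127 higher genes were unaffected. The part of retinal or pineal tissue in the 48 hrs sample was not tested.

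The promoters of these genes are shown because photoreceptor and pineal genes are known targets of Crx and Otx2, which bind the letters TAATCC. This motif was found on either strand in 12 of 33 matched promoters of the list (36.4%) and in 5 of the 13 that were lower at 72 hrs (38.5%), against 5.82% of all matched promoters. Otx2 itself had an intensity of 214 at 48 hrs and 78.7 at 72 hrs. At 12 hrs it was at 263, when Prph2, Sag and Aipl1 were not detected. Otx2 also stood on the list of choroid plexus and ependyma genes, and its part in these differences was not tested. The stretches before Prph2 (chr9:21579075-21579324, minus strand) and Aipl1 (chr10:57163456-57163705, minus strand) each held 1 copy, in capitals, which in Aipl1 reads on the opposite strand.
Prph2: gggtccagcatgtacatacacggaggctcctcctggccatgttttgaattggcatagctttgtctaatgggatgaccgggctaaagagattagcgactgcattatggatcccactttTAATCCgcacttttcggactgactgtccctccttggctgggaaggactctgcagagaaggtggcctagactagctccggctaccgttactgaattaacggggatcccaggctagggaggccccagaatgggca
Aipl1: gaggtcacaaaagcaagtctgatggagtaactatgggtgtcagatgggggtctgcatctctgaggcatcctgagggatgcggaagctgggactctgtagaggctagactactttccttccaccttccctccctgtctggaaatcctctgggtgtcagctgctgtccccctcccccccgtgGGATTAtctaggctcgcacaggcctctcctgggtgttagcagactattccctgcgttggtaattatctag

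**Figure D4:**
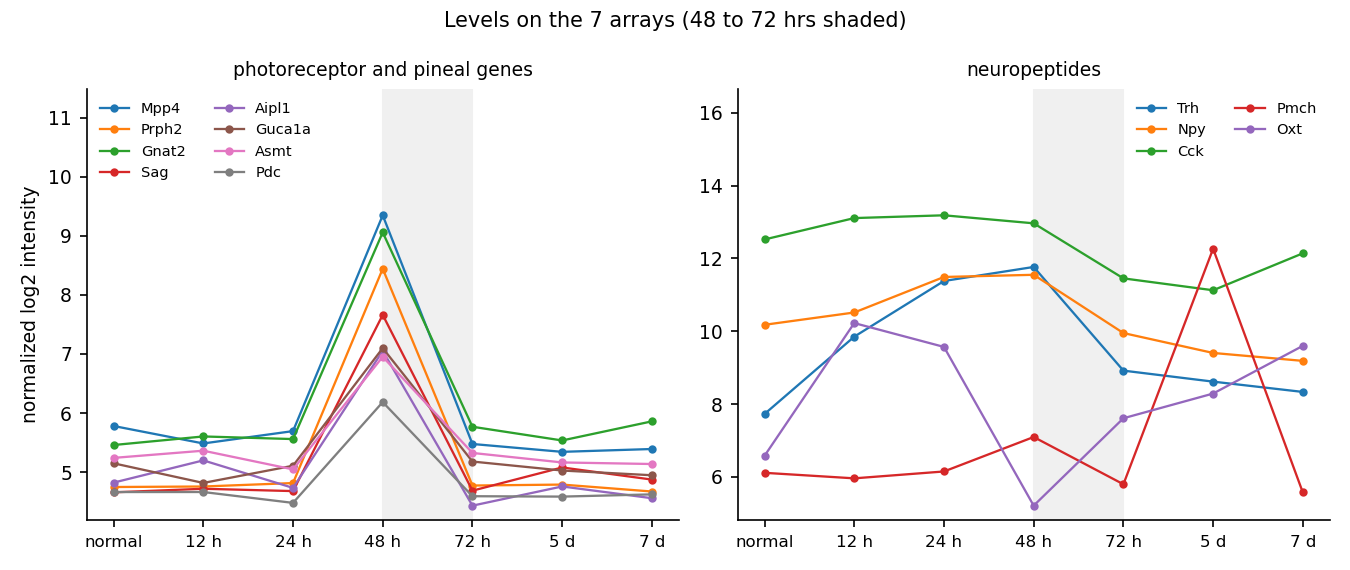
Normalized log2 intensity (y axis) on the 7 arrays (x axis, normal to 7 day) of 8 photoreceptor and pineal genes on the left and 5 neuropeptides on the right, with 1 array at each point and the step from 48 to 72 hrs shaded. The photoreceptor and pineal genes had a single maximum at 48 hrs, Trh was highest at 48 hrs, Oxt was lowest there, and Pmch was highest at 5 day.

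The levels before and after the step were read from the 24 hrs and 5 day arrays, which share no array with it. This comparison was chosen after the values were seen. Of 9496 genes detected at 24 hrs or 5 day, 641 (6.75%) were at least 2-fold higher and 307 (3.23%) lower at 5 day than at 24 hrs. This set differs from the 9434 genes detected at 48 or 72 hrs. Of the 127 genes higher at 72 hrs than at 48 hrs, 118 (92.9%) were also above their 24 hrs level at 5 day and 101 (79.5%) by at least 2-fold, against 44.5% above among all 9434 genes. Of the 66 lower genes 51 (77.3%) were below their 24 hrs level at 5 day and 26 (39.4%) by at least 2-fold. Among the same 9434 genes 55.4% were below. Genes at least 2-fold the other way were 2 of the higher genes, Oxt and Tmem252, and 3 of the lower genes, Pmch, Neurod1, a factor of granule neurons and pinealocytes, and Chrna3, a nicotinic receptor subunit. The higher genes were thus mostly on 1 side of the plot and the lower genes less so.

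**Figure D5:**
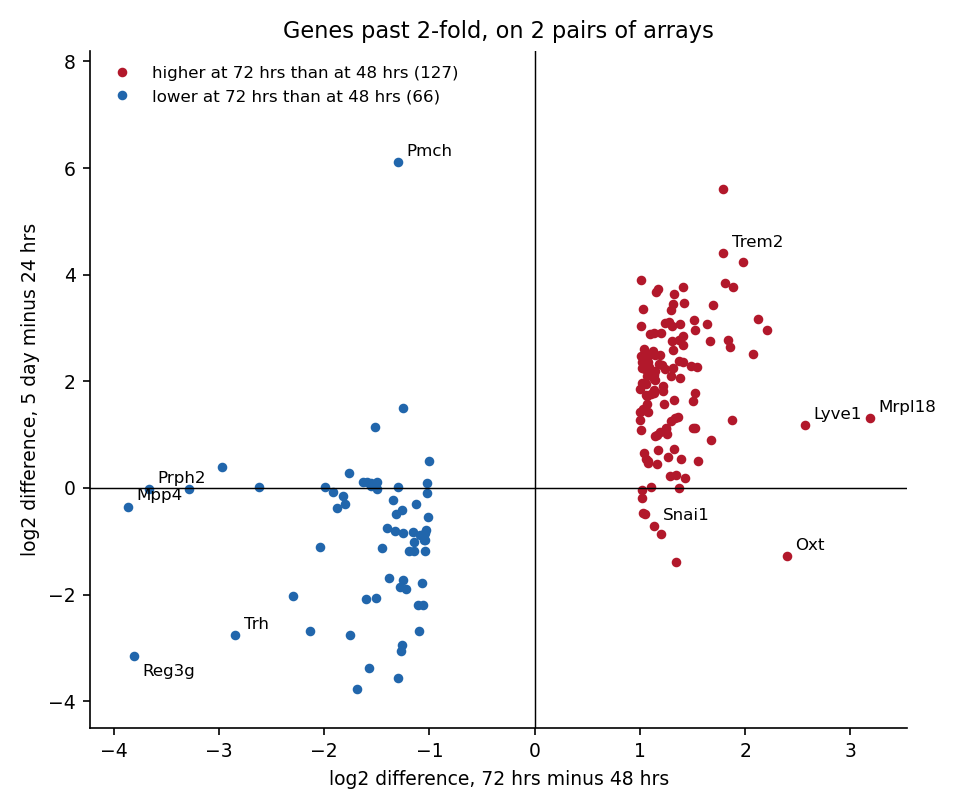
Each point is 1 of the 193 genes past 2-fold, with its log2 difference between 72 hrs and 48 hrs on the x axis and between 5 day and 24 hrs on the y axis. Most of the 127 higher genes lie above the horizontal line, while the photoreceptor genes Mpp4 and Prph2 lie close to it and Pmch and Oxt lie on the opposite side of their group.

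Levels against the normal array were counted for the higher and the lower genes. These genes were chosen by their 48 and 72 hrs values, so the counts below follow in part from that choice. Such counts were not made over all genes, whose median difference from normal was -0.03 at 48 hrs and -0.05 at 72 hrs. Of the 127 higher genes 104 were at least 2-fold above normal at 72 hrs and 22 within 2-fold of it, whereas at 48 hrs 46 were above and 11 below. The highest level of the 7 was at 72 hrs for 41 of them and at 5 day for 70. Of the 66 lower genes 40 were at least 2-fold above normal at 48 hrs and 12 at 72 hrs, when 46 were within 2-fold of it and 8 below. Their highest level was at 48 hrs in 39. The normal array is 1 array too, and its own spread was not measured.

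Most genes had 1 probe, so few differences could be checked on a second one. Among 202 genes with 2 detected probes the SD of the difference between probes was 0.31 on the log2 scale. Of these genes 4 passed 2-fold by the brightest probe, Qprt, which makes an NAD precursor, Pltp, Loxl1 and Alb. The second probe had the same direction in 4 of 4, and it passed 2-fold too in 1, Qprt, at 1.39 beside 1.49.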

How the data were processed

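Messenger RNA was measured on 7 arrays, 1 for each group, with groups taken from the labels. The values were the deposited intensity of each probe, on a linear scale after a background subtraction by the authors, with 20.8% to 21.9% of values below 0. The study's methods name BeadStudio and the submitters' processing notes GenomeStudio 1.8.0, and the methods give a normalization to 5S rRNA for the microarray analysis without saying for which arrays. No step used the 48 columns, from 12 arrays, of a further non-normalized table, since their names match none of the samples. Probes were named through the platform's gene table and RefSeq symbols (GRCr8), and the probe with the highest mean intensity stood for a gene.

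The normal-exponential background model (limma 3.58.1 in R 4.3.3) was fitted to each array, 16 was added as an offset, and the log2 of these was brought to common quantiles over the 7 arrays, which understates folds of dim genes. A gene was detected above the 98th percentile of each array's negative values with their sign turned, a limit chosen after the values were seen. The self-test on simulated data ran in Python 3.11.15. With 1 array in a group no test was made, so precision is limited by the number of arrays.

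Genes named were the 15 furthest in each direction, up to 5 members of each list past 2-fold in each direction and 3 further ones, the 5 brightest in each direction, and members of lists whose counts are given, passing over symbols starting with LOC, RGD or MGC. Adgre1, Crhbp, Gch1, Grn, Knstrn and Ucp2, and genes named for their pattern over arrays or a second probe, were chosen after their values were seen. Members and lists (70) were chosen with earlier results of these data known, and 4 lists were added after the values were seen.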

Additional observations from a re-analysis of the deposited data

How the results depend on the processing

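Counts of genes at least 2-fold higher and lower at 72 hrs, 127 and 66, were 77 and 38 with an offset of 50 before log2, and 184 and 105 with an offset of 4. Without normalization between arrays they were 228 and 48, and with median scaling 174 and 57. At 1.5-fold they were 500 and 328, and at 3-fold 18 and 21. Deposited values without the background model gave 173 and 94, and requiring detection on both arrays gave 120 and 51. The cause of these shifts was not tested. Leaving out photoreceptor and pineal genes, chosen after seeing the data, gave 127 and 50. The remaining alternatives, all probes averaged, no detection filter and quantiles of the 2 arrays alone, gave 124 to 128 and 65 to 68. Of 98 named genes 63 passed 2-fold under all 9 alternatives of normalization, background, offset, detection and probes, and 6 more under the 8 that could be run for them. The alternatives of detection leave a gene's difference as it was, and averaging probes can change only genes with more than 1 probe. A pass under these is therefore no further check for most genes. Those that missed 2-fold in 1 or more included Il1b, Tubb3, Hspb1, Rgs4, Ptgs2 and Mmp8. List medians for photoreceptor and pineal genes ran from -1.88 to -0.47, and for Reg family genes from -1.77 to -0.62. No paired analysis was possible because each group had 1 array. For the same reason no replicate could be left out. Dim genes, near the limit of detection, are the least certain.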
